A study of Homo sapiens with 2 samples.

Results

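The epithelial junction and mesenchymal transition genes are 41 genes, 27 of epithelial cell junctions with their regulators and 14 of the mesenchymal state, which were taken by gene symbol from a list drawn up with earlier results of these data known. Of the 41, 39 had a probe set that the platform annotation gave to a single gene, and 29 of these passed a filter on low values. In the whole series 18132 genes had such a probe set, and 12220 of them (67.4%) passed. F11R was not analysed here, and the 5 probe sets of CTNND1 carry a further gene symbol, so they named no gene. The cells were HCT116, a human colorectal carcinoma cell line of epithelial origin, and their RNA was hybridised to Affymetrix PrimeView arrays. One sample carried a short hairpin RNA labelled shSUN2-1 against SUN2 (the SUN2 knockdown), and the other a scrambled hairpin labelled Scr (the control). Each group held 1 array. SUN2 encodes an inner nuclear membrane protein of the complex that couples the nucleus to the cytoskeleton, and the comparison asks which transcripts differ when its RNA is reduced. How the hairpins were delivered and for how long the cells carried them is not given here.

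With 1 array in each group there was no replicate, no test, no standard error and no p-value. Every difference below is on the log2(intensity + 16) scale, knockdown minus control, and folds are on that scale too. Where a gene had several probe sets, the one brightest on average stands for it, and the filter kept genes for which this average reached the middle of all probe sets, an intensity of about 108. Sizes of 1.2-fold, 1.5-fold and 2-fold (0.26, 0.58 and 1 in log2) were used to count genes. The only error available was the scatter of probe sets around the mean of their gene, an SD of 0.09 over 5786 genes, which holds no variation between cultures. Over the 16 members with several probe sets past the filter it was 0.06.

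SUN2 was the check of the labels. Its brightest probe set read 407 in the knockdown array and 498 in the control array, 81.8% of control or 1.21-fold lower, so most of the signal remained. All 6 of its probe sets were lower, by between -0.39 and -0.05, with 4 of the 6 past the filter. Of all genes past the filter with at least 3 probe sets, 22.4% had all of them lower. Differences depended on brightness across the arrays. With the 12220 genes split into 4 equal classes of brightness, the brightest class had a median difference of 0.09 and the dimmest class one of -0.04. Of the 23 background controls, probe sets designed against no human sequence, 20 were lower in the knockdown array. The gap widened with their G and C bases, to -0.33 at 25 such bases, with 1128 in the knockdown array and 1425 in the control array. Of the 10 colon epithelium markers 8 passed the filter, against 67.4% of all genes. Their intensities summed to 9327 in the knockdown array and 7919 in the control array. The filter was also passed by 4 of 10 fibroblast, 3 of 9 immune and 7 of 10 endothelial markers, so it does not by itself set the colon markers apart. Fibroblast markers summed to 1062 in the knockdown array and 1114 in the control array, with 9 of 10 lower. Immune markers summed to 1289 in the knockdown array and 1365 in the control array, with 9 of 9 lower. Endothelial markers summed to 1458 in the knockdown array and 1573 in the control array, with 10 of 10 lower. These counts include markers below the filter, 6 fibroblast, 6 immune and 3 endothelial. Of all 18132 genes with a probe set, 7594 were higher. Among genes past the filter 50.2% were lower, and in the dimmest class 68.6%. No marker read 0, since background is left in the values. In bulk RNA, fewer cells that express a gene and less RNA per cell cannot be told apart.

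Epithelial cells are held together by adherens junctions, in which E-cadherin binds its partner on the next cell and is tied to actin through catenins, by desmosomes, which anchor keratin filaments, and by tight junctions, in which claudins and occludin seal the space between cells. Splicing regulators (ESRP1 and ESRP2) and transcription factors such as GRHL2 and ELF3 maintain this programme. In an epithelial to mesenchymal transition, factors of the SNAI, TWIST and ZEB families repress junction genes, and cells gain vimentin, fibronectin and N-cadherin. HCT116 cells are known as epithelial cells that grow in attached islands.

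SNAI and ZEB factors bind E-boxes with the letters CAGGTG on one strand and CACCTG on the other, and both spellings were searched in promoters of 300 bases, 250 before and 50 after a RefSeq transcription start. A promoter was listed for 15 of the 27 junction members, with 27 starts between them, and for 10 of the 14 mesenchymal members, with 19 starts. The letters stood in 13 of the 27 junction starts (48.1%) and in 5 of the 19 mesenchymal starts (26.3%), against 20.6% of 35116 starts of all genes in the table and 19.95% of the starts of protein-coding genes. Counted by gene, with a match at any listed start, it was 12 of 15 junction members (80%) and 4 of 10 mesenchymal members (40%), against 24.8% of protein-coding genes. Starts of 1 gene can overlap. A match is a description of letters and not of binding. Below are the first-listed starts of the junction member and the mesenchymal member with the largest difference among members past the filter that have a listed promoter. For TJP1 it is chr15:29969000-29969299 on the minus strand, the only one of its 4 starts with a match, which begins 88 bases before the start. For AXL it is chr19:41218973-41219272 on the plus strand, 1 of its 2 starts, with a match that begins 106 bases before the start. Both are given 5′ to 3′ from RefSeq on GRCh38.p14, with the E-box letters in capitals.
TJP1: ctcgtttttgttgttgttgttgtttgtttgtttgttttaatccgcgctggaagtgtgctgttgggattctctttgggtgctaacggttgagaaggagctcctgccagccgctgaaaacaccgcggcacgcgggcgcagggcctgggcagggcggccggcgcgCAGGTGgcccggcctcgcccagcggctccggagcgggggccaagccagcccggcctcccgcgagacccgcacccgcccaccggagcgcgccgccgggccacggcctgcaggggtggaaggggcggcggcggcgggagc
AXL: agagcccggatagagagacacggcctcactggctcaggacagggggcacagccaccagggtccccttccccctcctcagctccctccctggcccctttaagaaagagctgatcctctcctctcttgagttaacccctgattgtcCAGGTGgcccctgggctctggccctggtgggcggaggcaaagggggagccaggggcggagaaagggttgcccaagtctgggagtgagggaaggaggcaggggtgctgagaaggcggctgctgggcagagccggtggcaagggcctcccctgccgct

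Junction genes as a group differed little between the arrays. Of the 22 that passed the filter, 15 were higher in the knockdown array (68.2%), against 49.8% of all genes past it. Their median difference was 0.04, against -0.0009 for all genes. This direction turned under 2 of 3 scalings. The median was -0.04 after quantile normalization and -0.03 after a loess correction for brightness, with 7 of 22 members higher under each. Of the 22, 13 lay in the brightest of the 4 classes, and 9 of these 13 were higher, where 72.4% of all genes in that class were. In the next class 5 of 6 were higher, against 52.9% of all genes. In the class below it 0 of 2 were, against 42.3%, and in the dimmest 1 of 1, against 31.4%. No junction member was at least 1.2-fold higher, against 5.95% of all genes. There were 2 at least 1.2-fold lower, SPINT2 and TJP1, or 9.09% of the 22. As far lower were 0.884% of all genes and 1.34% of those in the brightest class. No junction or mesenchymal member past the filter reached 1.5-fold in either direction, where 0.336% of all genes were as far higher and 0.0245% as far lower. At 2-fold the shares of all genes were 0.0736% higher and 0.00818% lower.

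**Figure D1:**
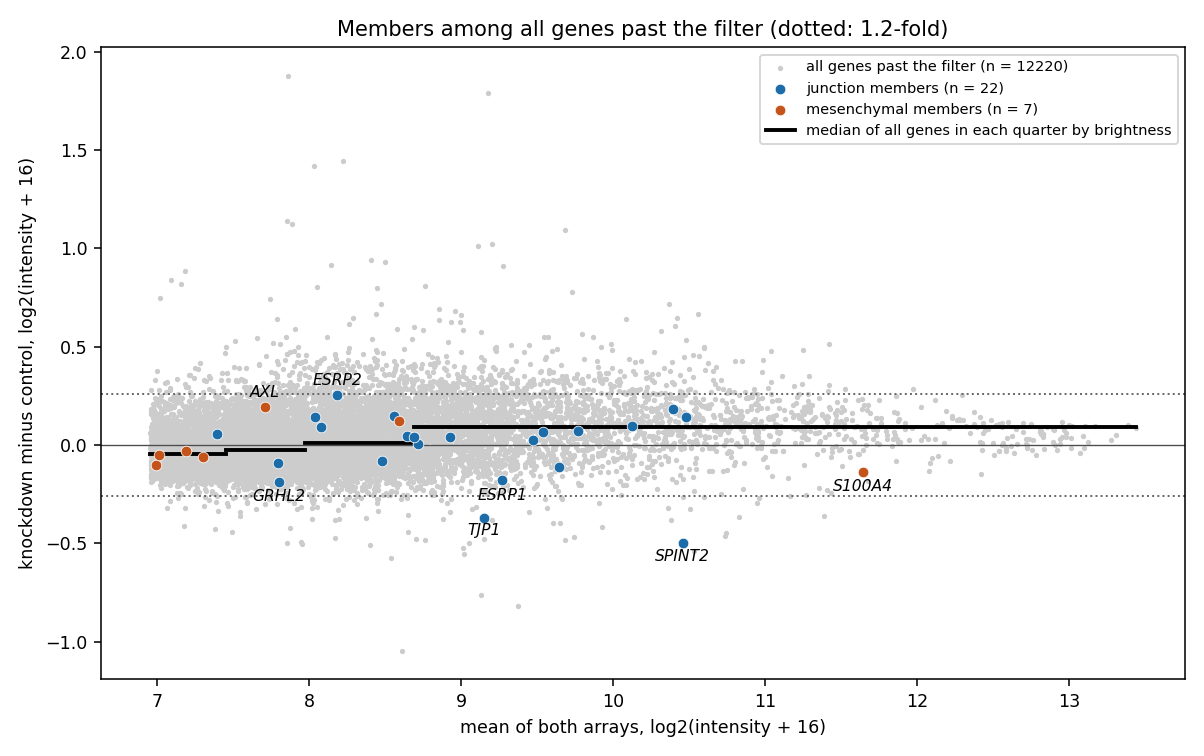
Each grey point is 1 of 12220 genes past the filter, with the mean of both arrays on the x axis and the difference, knockdown minus control, on the y axis, both on the log2(intensity + 16) scale; junction members are blue, mesenchymal members orange, and black bars are medians of all genes in each of 4 classes of brightness. SPINT2 at -0.50 and TJP1 at -0.37 lie below the dotted 1.2-fold line, and most other junction members lie in the brighter classes, where the bars are at or above 0.01.

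SPINT2 had the largest difference of the 41 genes. It encodes a Kunitz-type inhibitor at the cell surface that restrains the serine proteases matriptase and prostasin. Its brighter probe set read 1166 in the knockdown array and 1656 in the control array, 70.4% of control, a difference of -0.50 or 1.41-fold lower. The second probe set read 624 in the knockdown array and 833 in the control array (-0.41). Both were lower, the brighter by 5.30 times the probe set SD, and only 11 of the 12220 genes, SPINT2 included, had a difference as low or lower. The brightest background control, at 25 G or C bases, was lower by -0.33 at 1128 in the knockdown array and 1425 in the control array. The G and C content of the SPINT2 probes is not known here, and the part of background in its difference was not tested.

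The other protease genes of the list did not share that size. SPINT1, a paralogous inhibitor of matriptase, read 331 in the knockdown array and 352 in the control array (-0.08). All 5 of its probe sets were lower, by between -0.16 and -0.01. ST14, which encodes matriptase, read 403 in the knockdown array and 391 in the control array (0.04), and its second probe set differed by -0.05. RAB25, a small GTPase of apical recycling vesicles, read 746 in the knockdown array and 712 in the control array (0.07), but stood at -0.04 after quantile normalization.

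Tight junction genes held the second largest difference. TJP1, the scaffold ZO-1 that ties claudins and occludin to actin, read 484 in the knockdown array and 630 in the control array, a difference of -0.37 or 1.29-fold lower, and 37 of the 12220 genes were as low or lower. This rests on a single probe set of the _s_at class, whose probes can match more than 1 transcript. The other TJP1 probe set lay below the filter, at 79.7 in the knockdown array and 76.1 in the control array (0.06), so the probe sets disagreed. With their mean in its place the difference was -0.16. The pore-sealing claudin CLDN3 read 199 in the knockdown array and 213 in the control array (-0.09). CLDN4 read 405 on both arrays on its brightest probe set (0.002), and its other probe sets differed by -0.09 and 0.16. CLDN7 stood at 477 in the knockdown array and 464 in the control array (0.04), and the transmembrane protein OCLN at 155 in the knockdown array and 149 in the control array (0.06). CLDN1 and the scaffold TJP3 did not pass the filter: their brightest probe sets read 88.7 and 88.5 in the knockdown array, against 90.6 and 90.5 in the control array, and both differed by -0.03.

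Desmosome genes were the junction group with the highest median, 0.14 over 5 members past the filter, all 5 of which were higher. Of the 5, 3 lay in the brightest class, where 72.4% of all genes were higher, and 2 in the next, where 52.9% were. DSP, the plakin that anchors keratins, read 1420 in the knockdown array and 1248 in the control array (0.18), with 0.11 on its second probe set. The desmosomal cadherin DSG2 read 1135 in the knockdown array and 1062 in the control array (0.09). Its second probe set was further apart, at 292 in the knockdown array and 242 in the control array (0.26), and the remaining one, below the filter, differed by 0.06. DSC2, the partner cadherin, read 381 in the knockdown array and 342 in the control array (0.15). Its 3 probe sets past the filter were higher by 0.10 to 0.15, and the 3 below it lay between -0.02 and 0.03. PKP3, an armadillo protein of the plaque, read 261 in the knockdown array and 235 in the control array (0.14), with -0.07 on a dim second probe set. JUP, or plakoglobin, read 700 in the knockdown array and 688 in the control array (0.02). After quantile normalization or loess DSG2 and JUP were lower at their lowest values of -0.03 and -0.08, while DSP, DSC2 and PKP3 stayed higher, at 0.07, 0.09 and 0.12 or above. PKP2 did not pass the filter, at 104 in the knockdown array and 93.3 in the control array (0.13), and its second probe set differed by -0.04.

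Adherens junction genes gave small differences of both signs. CDH1, which encodes E-cadherin, read 390 in the knockdown array and 378 in the control array (0.04), and its second probe set, below the filter, read 84.5 in the knockdown array and 88.5 in the control array (-0.06). The CDH1 difference was under the probe set SD and stood at -0.02 after quantile normalization and at -0.006 with the mean of both probe sets. CDH3, or P-cadherin, read 752 in the knockdown array and 815 in the control array (-0.11), while its second probe set read 372 on both (0.002). CTNNA1, alpha-catenin, read 877 in the knockdown array and 835 in the control array (0.07). Its 7 probe sets lay between 0.03 and 0.14, so that none was lower, but its brightest stood at -0.05 after quantile normalization. The adhesion molecule EPCAM read 1480 in the knockdown array and 1342 in the control array (0.14), and its other probe sets differed by 0.04 and 0.02. Its difference was 0.03 after quantile normalization or loess.

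**Figure D2:**
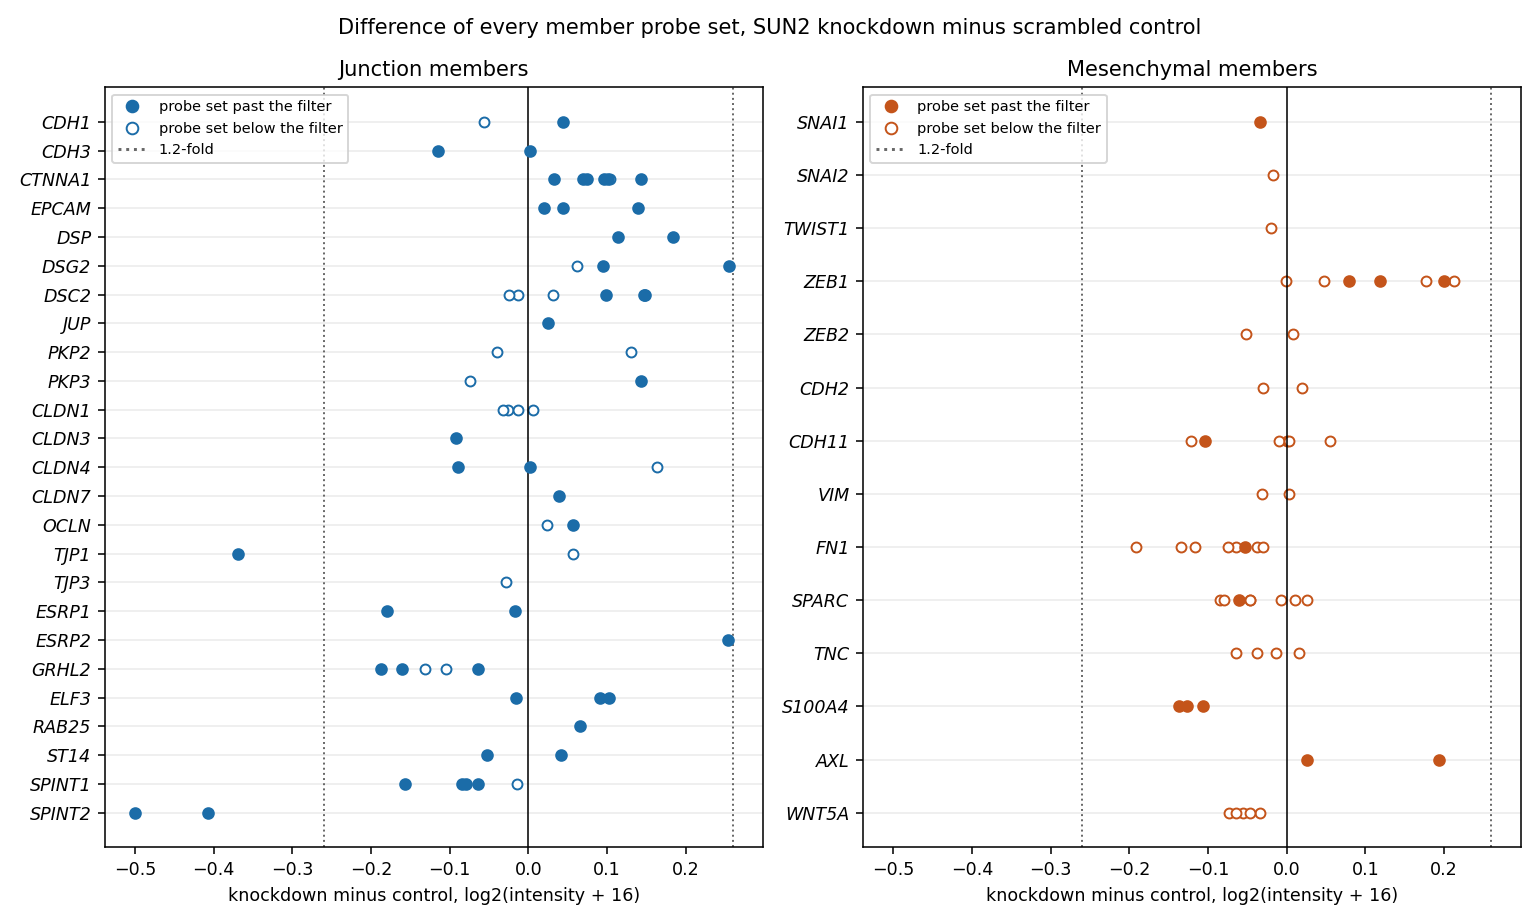
Each point is the difference of 1 probe set, knockdown minus control on the log2(intensity + 16) scale, in a row for each member, with junction members left and mesenchymal members right; filled points passed the filter on low values, open points did not, and dotted lines mark 1.2-fold. Both SPINT2 points, at -0.50 and -0.41, and the 1 filled TJP1 point, at -0.37, lie left of the dotted line, and the 5 GRHL2 points are all below 0.

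The epithelial regulators went opposite ways. ESRP1 and ESRP2 are paralogous proteins that direct epithelial splicing. ESRP2 read 302 in the knockdown array and 251 in the control array (0.25, or 1.19-fold higher), the highest difference of any member and just under the 1.2-fold size, on its 1 probe set. ESRP1 read 565 in the knockdown array and 641 in the control array (-0.18), where 3.87% of all genes were as low or lower, but only -0.02 on its second probe set, at 192 in the knockdown array and 195 in the control array. ESRP1 was lower and ESRP2 higher under all 10 alternatives, though not all of these could change the values. The other filters and the removal of _x_at and _s_at probe sets leave both as they are, and the mean of probe sets leaves ESRP2. The other pseudocounts cannot change a sign. ESRP1 passed 1.2-fold after quantile normalization (-0.28). GRHL2, a grainyhead transcription factor that activates junction genes such as CDH1, read 193 in the knockdown array and 222 in the control array (-0.19). Its other 4 probe sets differed by -0.16, -0.06, -0.13 and -0.10, so that all 5 were lower. ELF3, an ETS factor of epithelial differentiation, read 263 in the knockdown array and 246 in the control array (0.09), with 0.10 and -0.02 on its other probe sets.

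Agreement between probe sets was counted where a gene had several. Of the 8 junction members past the filter with at least 3 probe sets, all probe sets were higher in 3 (EPCAM, DSG2 and CTNNA1), where this held for 18.3% of all such genes. All were lower in 2 (GRHL2 and SPINT1), against 22.4% of all such genes. Of the 5 such mesenchymal members, 0 had all probe sets higher and 2 had all lower (FN1 and S100A4).

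Mesenchymal genes gave mostly dim signals, and none was 1.2-fold apart. Of 14 members, 7 passed the filter (50%), where 67.4% of all genes did. On both arrays 9 of 14 (64.3%) read above the background control with 16 G or C bases, as did 71.4% of all 18132 genes. That control stood at 94.2 in the knockdown array and 98.6 in the control array. The control with 20 such bases stood at 264 in the knockdown array and 282 in the control array, and 2 of 14 (14.3%), ZEB1 and S100A4, read above it, as did 26.3% of all genes. Of the 7 past the filter, 2 were higher and 5 lower (71.4%), against 50.2% of all genes lower, and the median difference was -0.05. CDH11, among the 5 lower, passed on the mean of both arrays. It read 107 in the knockdown array, below the filter, and 116 in the control array, above it. Of the 7, 4 lay in the dimmest of the 4 classes, CDH11 among them, and all 4 were lower, where 68.6% of all genes in that class were. The background controls had a median difference of -0.04 and the 10 fibroblast markers one of -0.03, and the part of either in these differences was not tested.

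**Figure D3:**
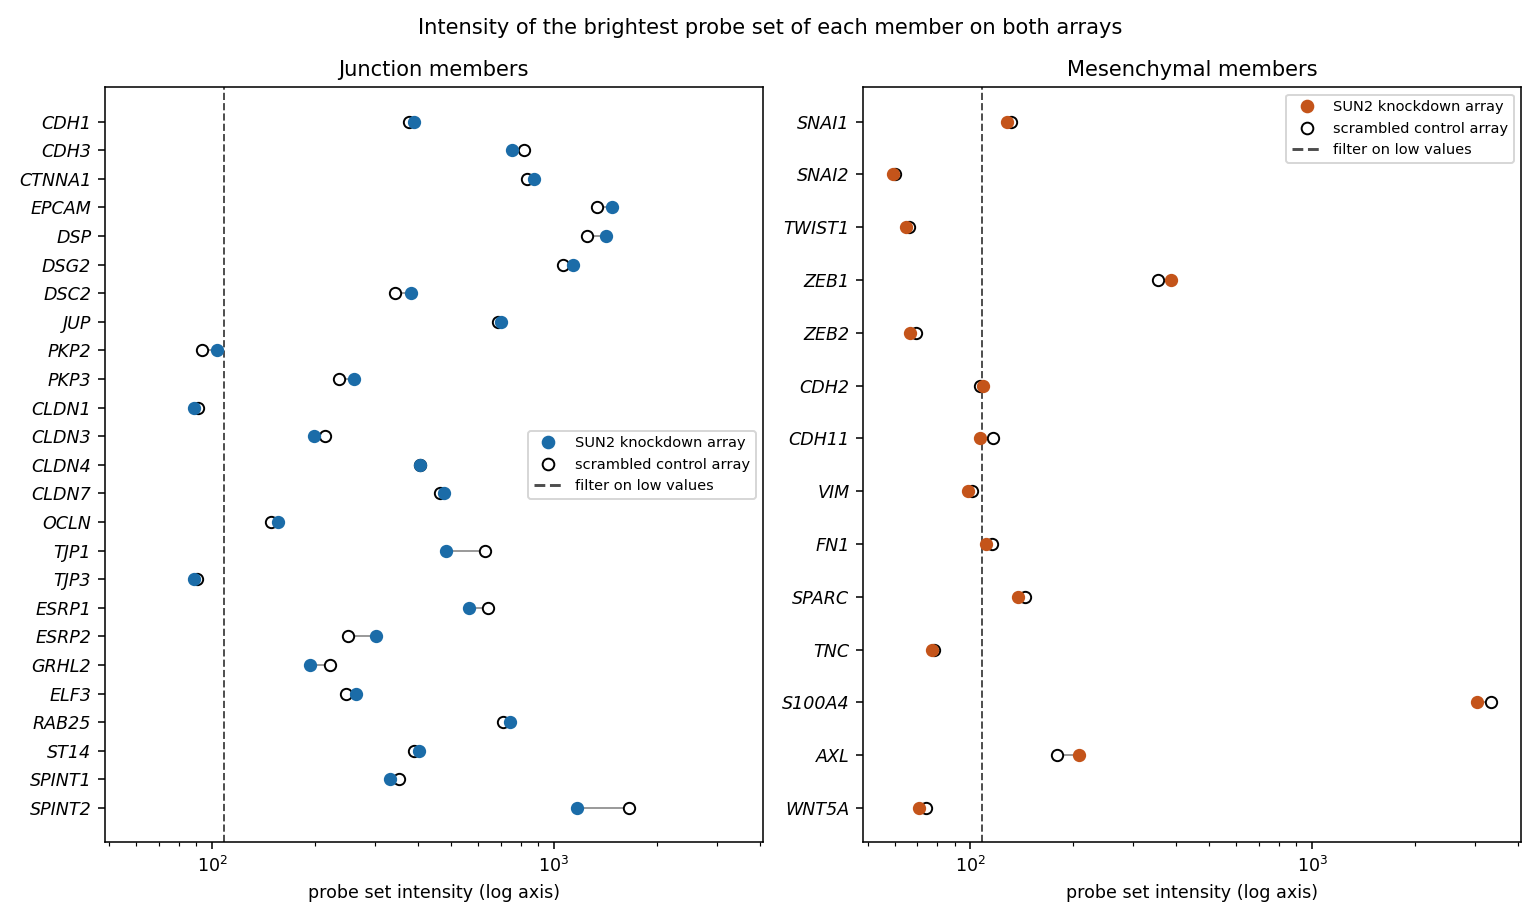
Intensity of the brightest probe set of each member, on a log axis, with junction members left and mesenchymal members right; filled points are the SUN2 knockdown array, open points the scrambled control array, and the dashed line is the filter at an intensity of about 108. SPINT2 and TJP1 show the widest gaps, and the mean of both arrays lies below the line for 7 of 14 mesenchymal members and for 3 of 25 junction members.

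Of the 5 transition transcription factors, ZEB1 and SNAI1 passed the filter. ZEB1, a zinc finger repressor of CDH1, read 386 in the knockdown array and 354 in the control array (0.12). Of its 7 probe sets 6 were higher, by up to 0.21, and the other stood at -0.0008. The next brightest ZEB1 probe set read 159 in the knockdown array and 136 in the control array (0.20). SNAI1, the founding repressor of the snail family, read 128 in the knockdown array and 132 in the control array (-0.03). SNAI2, TWIST1 and ZEB2 did not pass the filter, with 59.3, 64.9 and 66.4 in the knockdown array, against 60.3, 66.0 and 69.4 in the control array, and differences from -0.05 to -0.02.

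The genes of mesenchymal adhesion, cytoskeleton and matrix sat near the filter on both arrays. N-cadherin, CDH2, read 109 in the knockdown array and 107 in the control array (0.02) and did not pass. CDH11, a cadherin of mesenchymal cells, read 107 in the knockdown array and 116 in the control array (-0.10), and its 6 probe sets ran from -0.12 to 0.06. VIM, the intermediate filament vimentin, was at 98.4 in the knockdown array and 101 in the control array (-0.03) and did not pass either. FN1, fibronectin, was at 111 in the knockdown array and 116 in the control array (-0.05), and all 8 of its probe sets were lower, by up to -0.19, though 7 of the 8 lay below the filter. SPARC, a matrix glycoprotein, read 138 in the knockdown array and 145 in the control array (-0.06), with 6 of 8 probe sets lower. The matrix protein TNC, below the filter, read 77.4 in the knockdown array and 78.3 in the control array (-0.01).

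Genes of signalling and motility made up the rest of the mesenchymal list. S100A4, a calcium-binding protein of motile cells, read 3039 in the knockdown array and 3342 in the control array (-0.14). The other 2 probe sets read 3050 and 2994 in the knockdown array, against 3283 and 3268 in the control array, and all 3 were lower, by -0.14 to -0.11. After loess the difference was -0.24. The receptor tyrosine kinase AXL read 207 in the knockdown array and 179 in the control array (0.19), where 12.3% of all genes were as high or higher, and 157 in the knockdown array and 154 in the control array on its second probe set (0.03). The ligand WNT5A did not pass the filter, at 70.7 in the knockdown array and 74.1 in the control array (-0.05), and all 5 of its probe sets were lower.

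**Figure D4:**
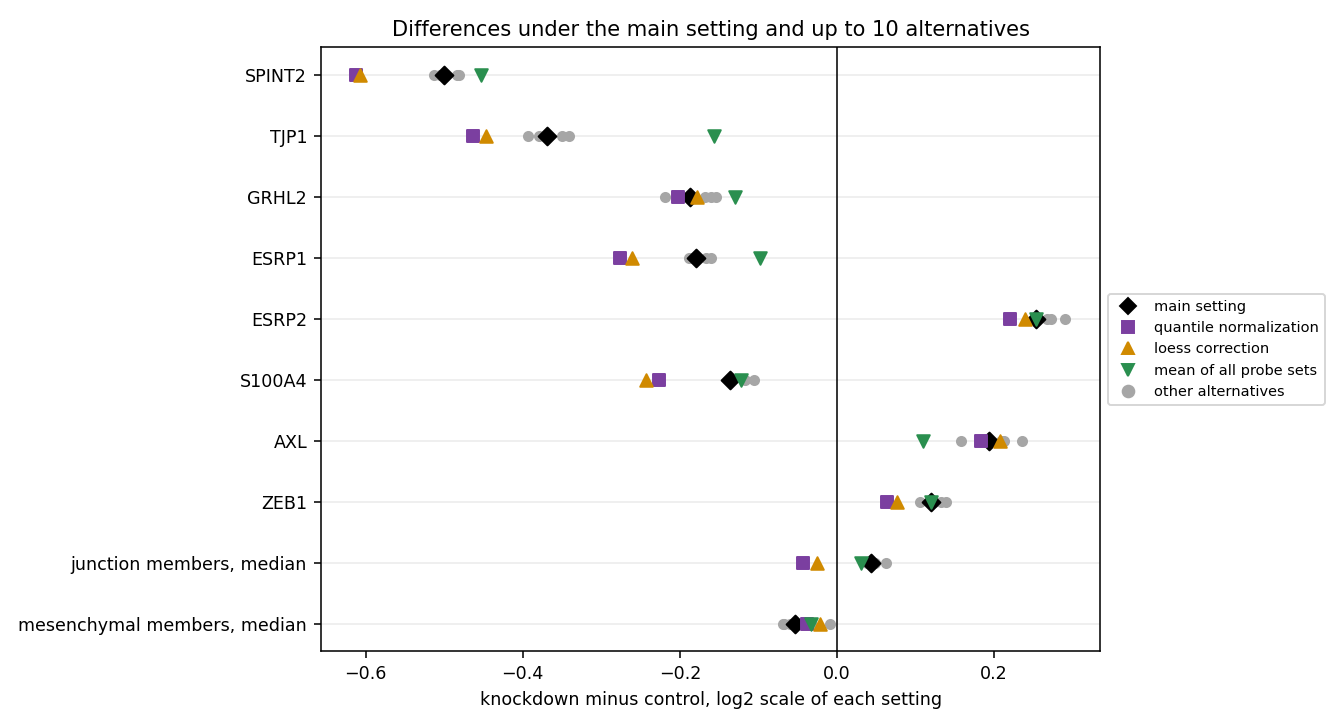
Each point is the difference of a member or the median of a group, knockdown minus control in log2, under the main setting (black diamonds), quantile normalization (squares), loess (upward triangles), the mean of all probe sets (downward triangles) and the other alternatives (grey circles). SPINT2 ran from -0.61 to -0.45, TJP1 moved to -0.16 with the mean of its probe sets, and the junction median crossed 0 after quantile normalization (-0.04) and loess (-0.03).

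Other genes of the same pathways were read from lists of related genes. For comparison, 67.4% of all genes passed the filter, and 49.8% of those were higher, with a median of -0.0009. Of 20 other tight junction and polarity genes 15 passed the filter, with a median of -0.04 and 6 higher (40%). The polarity adaptor PARD6B was the 1 gene at least 1.2-fold higher, with 290 in the knockdown array and 213 in the control array (0.42). That made 1 of 15 (6.67%), against 5.95% of all genes, and 0 were as far lower. The other PARD6B probe set, below the filter, differed by 0.06, and the mean of both was 0.24, under 1.2-fold. PALS1, another polarity scaffold, differed by 0.24, and the lowest were the pore-forming claudin CLDN2 (-0.19) and the adhesion receptor CXADR (-0.18). All 4 CXADR probe sets were lower.

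Of 18 other adherens junction and desmosome genes 15 passed, and 10 were higher (66.7%), against 49.8% of all genes. Their median was 0.16, above that of the members. There were 3 at least 1.2-fold higher (20%), against the 5.95% of all genes: NECTIN3, NECTIN4 and CTNNAL1, the last at 0.40 and named after its value was seen. NECTIN3, a cell adhesion molecule that recruits afadin at adherens junctions, read 1115 in the knockdown array and 757 in the control array (0.55, or 1.46-fold higher). Its second probe set read 561 in the knockdown array and 341 in the control array (0.69), so both were higher. NECTIN4 read 240 in the knockdown array and 177 in the control array (0.41), but 2 of its 3 probe sets were lower, by up to -0.13. The lowest were PKP1 (-0.12) and DSG1 (-0.10), desmosomal genes of stratified epithelia.

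Of 15 other epithelial regulators and surface genes 13 passed, and 8 were higher (61.5%), against 49.8% of all genes. Their median was 0.02. EHF, an ETS factor of epithelial cells related to ELF3, was the only gene of these lists at least 1.5-fold apart. Its brightest probe set read 455 in the knockdown array and 229 in the control array (0.94, or 1.92-fold higher), and 10 of the 12220 genes, EHF included, were as high or higher. The second probe set read 270 in the knockdown array and 135 in the control array (0.93), while another past the filter differed by -0.04 and all 8 together averaged 0.29. KLF5, a zinc finger factor of proliferating epithelium, differed by 0.19 and by 0.57 on its second probe set, and GRHL1 by 0.14. EPPK1 (-0.20) and the protease PRSS8 (-0.08), or prostasin, were lowest, with all 5 PRSS8 probe sets lower.

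Of 30 other mesenchymal transition genes 18 passed, and 7 were higher (38.9%), against 49.8% of all genes. Their median was -0.06. NT5E was at least 1.2-fold higher, 1 of 18 (5.56%), against 5.95% of all genes. HMGA2 was as far lower, also 1 of 18 (5.56%), against 0.884% of all genes. HMGA2, an architectural chromatin protein, read 684 in the knockdown array and 906 in the control array (-0.40, or 1.32-fold lower), with -0.11 and -0.07 on its other probe sets past the filter. The matrix cross-linking enzyme LOXL2 was next lowest, at -0.21 with 120 in the knockdown array and 142 in the control array. The surface enzyme NT5E, with 194 in the knockdown array and 156 in the control array (0.29), and the E protein TCF3 (0.23) were highest. TCF3 probe sets disagreed, from -0.19 to 0.23. The other NT5E probe sets, below the filter, differed by 0.04 and -0.03, and the mean of all 3 was 0.10, under 1.2-fold.

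**Figure D5:**
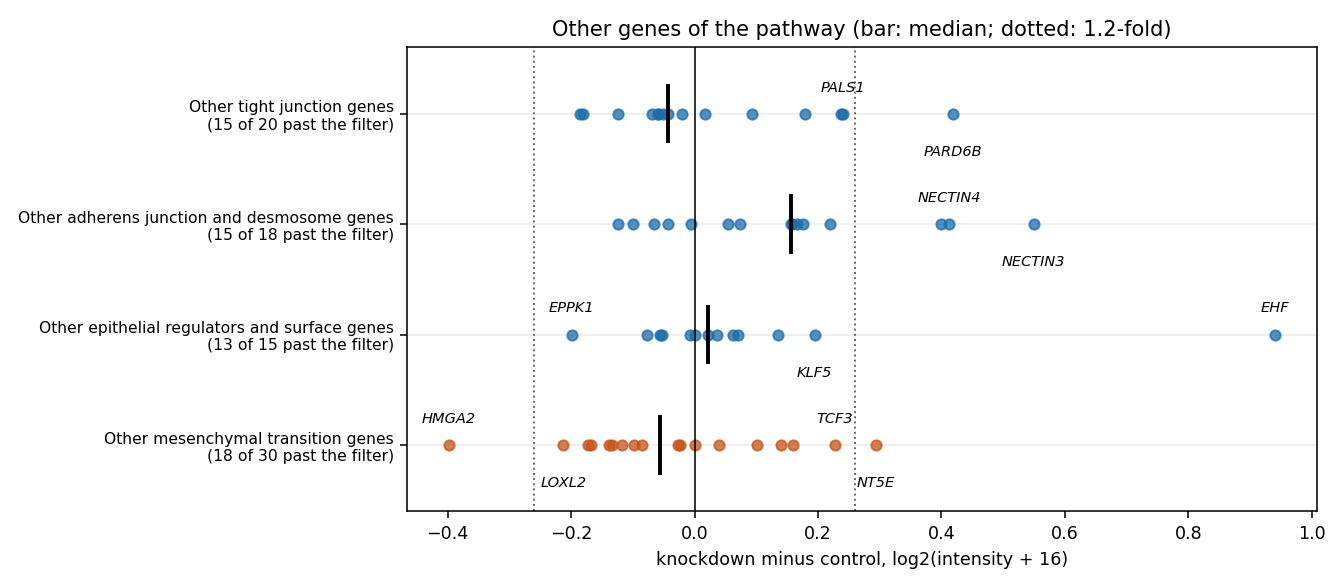
Each point is 1 gene past the filter from 4 lists of related genes, with the difference, knockdown minus control on the log2(intensity + 16) scale, on the x axis; black bars are list medians and dotted lines mark 1.2-fold. EHF at 0.94, NECTIN3 at 0.55 and PARD6B at 0.42 stand to the right, HMGA2 at -0.40 to the left.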

How the data were processed

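Total RNA (100 ng) from 1 SUN2 knockdown and 1 control culture of HCT116 was labelled and hybridised to Affymetrix arrays, per the labels' protocols. The values used are the probe set intensity values that the authors deposited, on a linear scale. Tools named in the submitters' processing notes are MAS5 and RMA, without a role, and how the arrays were centred or scaled is not stated there. The median was 107 in the knockdown array and 109 in the control array. No background was subtracted from the deposited values in the main setting. Any background left in them would compress differences of dim genes.

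Of 49395 probe sets, 102 are controls, 44988 carry 1 symbol, 1832 several and 2473 none. Symbols were updated through the Entrez ID (44961 matched) in RefSeq of GRCh38.p14, and no coordinates were taken for probe sets. Differences used a pseudocount of 16. No test was run, and the number of arrays limits the precision. Named were SUN2, every member and, in each related list, genes past 1.5-fold with the 2 highest and 2 lowest. By the same rule the promoters of CDH1 and of the member with the largest difference in each group were to be printed; CDH1 and SPINT2 are not in the promoter table, and TJP1 was next. The members and lists were chosen with earlier results of these data known. Alternatives were 3 scalings (median centring, quantile, loess with a span of 30%), the mean of all probe sets, no _x_at or _s_at probe sets, 2 other filters, pseudocounts of 1 and 64, and normexp (limma 3.58.1). The gene steps (Python 3.11.15, statsmodels 0.14.6) were tested on simulated data.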

Additional observations from a re-analysis of the deposited data

How the results depend on the processing

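Of 276 values of single members under the 10 alternatives, 256 moved by less than the probe set SD and 20 moved further. Only SPINT2 and TJP1 were at least 1.2-fold apart, and 0 of these 2 turned in sign. Some of the 276 could not move. The 2 other filters only change which genes are kept. Leaving out the _x_at and _s_at classes changes a value only where the brightest probe set is of those classes. The mean of all probe sets changes nothing for a member with 1 probe set. Of the 29 members past the filter, 21 had the same sign under every alternative that measured them; among the other 8, CDH1, CLDN4, CLDN7, DSG2, JUP, CTNNA1, RAB25 and ST14, the main difference was at most 0.09. SUN2 stayed between -0.36 and -0.21, and the mesenchymal median between -0.07 and -0.009. After quantile normalization or loess, 1 member was 1.5-fold lower (SPINT2, at -0.61 under both), against 0 in the main setting. With median centring, a pseudocount of 1 or normexp, 1 junction member was 1.2-fold higher (ESRP2, at 0.27, 0.27 and 0.29), against 0. With the mean of all probe sets, or without the _x_at and _s_at classes, 1 junction member was 1.2-fold lower, against 2: TJP1 stood at -0.16 in the first, and has no probe set past the filter in the second. After quantile normalization that count was 3, with ESRP1 at -0.28. At a filter on the 75th percentile 2 mesenchymal members were left. No paired analysis was possible because there is 1 array per group, so no array could be left out either. Dim members near the background controls are limited by signal over background.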

Other observations

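Of the 10 markers of colon epithelium, 7 were higher in the knockdown array, among them the 4 keratins and the members EPCAM and CDH1. Of all 18132 genes with a probe set, 7594 were higher. KRT8 read 1325 in the knockdown array and 1041 in the control array (0.34), and its partner KRT18 read 2339 in the knockdown array and 1872 in the control array (0.32). Both are keratins of simple epithelia. KRT19 differed by 0.22, and KRT20, a keratin of differentiated intestinal cells, read 182 in the knockdown array and 91.1 in the control array (0.88). The KRT20 difference rests on 1 probe set. This probe set passed the filter on the mean of both arrays but read below it in the control array. In the brightest class, which holds KRT8, KRT18 and KRT19, 72.4% of all genes were higher. The intestinal factors CDX2 and CDX1 differed by 0.04 and -0.06. VIL1 (-0.12) and LGALS4 (-0.004), 2 further markers of intestinal epithelium, lay below the filter.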
